A study of Homo sapiens with 16 samples.

Results

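Integrins are the cell's receptors for the extracellular matrix, and 10 of their subunits were followed in lung cancer cells stimulated with HGF. The genes were chosen by symbol in the deposited counts table, as 5 alpha subunits (ITGA2, ITGA3, ITGA5, ITGA6 and ITGAV) and 5 beta subunits (ITGB1, ITGB4, ITGB5, ITGB6 and ITGB8). They are 10 of the 42351 genes of the table and 10 of 26 integrin subunit genes looked for. All 10 passed the filter on low counts, over all libraries and within each cell line alone.

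Sequencing libraries of polyadenylated RNA were made from cells with wt MET, which the sample labels name as A549, the table's columns as H549, while the study's text names EKVX as a line with wt MET, so that its identity is not settled, and from cells expressing MET∆14 (NCI-H596, a lung adenosquamous carcinoma line whose MET transcript skips exon 14). MET is the receptor of hepatocyte growth factor (HGF). Per the labels, all cells of both lines were serum deprived for 12 h (the study's methods give a longer time for HGF treatments), then left without HGF (0 h) or given HGF for 3, 6 or 12 h, with 2 libraries in each of these 8 conditions. Total counts ranged from 13226488 to 21970052 per library with wt MET and from 10158590 to 23909304 with MET∆14. Each MET status was represented by 1 cell line, so the MET variant and every other property of the line cannot be told apart. The only samples without HGF were those of 0 h, so HGF and the time spent in the dish cannot be told apart either. The study calls the 2 libraries of a condition biological duplicates, which the labels do not detail, and the p-values measure the spread between them.

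An integrin is a pair of 1 alpha and 1 beta subunit, each crossing the membrane once, and the pair sets the ligand. Outside the cell the pair binds collagen, laminin, fibronectin or vitronectin, and inside it is tied through talin and kindlin to actin. In epithelial cells the pair of ITGA6 and ITGB4 instead anchors keratin filaments at hemidesmosomes, and pairs with ITGAV can release active TGF-beta from its latent form.

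The 2 libraries of MET∆14 at 12 h stood apart from each other, with a chi-square per degree of freedom of 34.5 over all genes. Those of wt MET at 0 h were next, at 9.95, and the remaining conditions were at 2.8 to 4.545. The wt MET libraries of 0 h are the baseline of every wt MET fold change and of every difference between the lines. The fold changes of the members with MET∆14 at 12 h are also given without each library of that condition, save that of ITGB6, and libraries were left out 1 at a time. Other values of MET∆14 at 12 h, such as ratios and genes that are no members, are given for both libraries only. MET was 1206 and 1275 CPM (the usual per-library scaling of counts, with library sizes corrected by TMM) with wt MET at 0 h and 370 and 370 CPM with MET∆14. It rose at 6 and 12 h with wt MET (log2 fold changes of 0.28 and 0.29) and did not pass the test at any time with MET∆14. CDKN2A, which A549 is known to lack, had 0 counts in all 8 wt MET libraries. The epithelial keratins KRT8 and KRT18 were at 493 CPM or more and at 358 CPM or more in every library, while other epithelial markers were low with wt MET. EPCAM was 0.868 to 2.97 CPM with wt MET and 24.4 to 37.4 CPM with MET∆14, CDH1 was 2.54 to 12.6 and 80.7 to 125 CPM, and KRT19 was 26.7 to 53.1 and 931 to 1754 CPM. With wt MET, CDH1 was 12.6 and 5.94 CPM at 0 h and 2.72 and 2.89 CPM at 12 h, and its part in the results was not tested. The squamous markers KRT5, KRT14 and TP63 reached at least 1743, 32.0 and 96.5 CPM in every MET∆14 library and at most 0.242, 0 and 2.56 CPM with wt MET. Of the markers of other cell types, PTPRC and CD3E of leukocytes, CDH5 of endothelium and DCN and LUM of fibroblasts were at most 0.244 CPM in all libraries, PDGFRB, VWF and PECAM1 at most 0.636, 1.70 and 1.84 CPM. The others were higher. CD68 of macrophages was 34.3 to 41.8 CPM with wt MET and 108 to 154 CPM with MET∆14, CD14 at most 0.434 and 22.2 CPM, and COL1A1 10.8 to 19.0 and 15.9 to 33.3 CPM. The part of such cells in the results was not tested.

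Before HGF, the lines differed in all 10 integrin subunits by the quasi-likelihood test of edgeR (p adjusted after Benjamini and Hochberg over the 15067 genes tested, threshold 0.05, which defines a call here). Of all genes tested, 80.2% were called in this comparison, 40.6% higher and 39.6% lower with MET∆14. With MET∆14, 8 members were higher and ITGB1 and ITGB5 were lower. The median log2 difference of the members was 0.73, against 0.02 over all genes tested. The largest was that of ITGB8, a partner of ITGAV that binds latent TGF-beta. It had 10 and 11 counts with wt MET (0.72 and 0.78 CPM) and 3529 and 4581 counts with MET∆14 (230 and 228 CPM), a 301.5-fold difference. The hemidesmosome pair followed. ITGB4 was 173 and 128 CPM with wt MET and 2105 and 2092 CPM with MET∆14 (log2 difference 3.80 ± 0.16, SE), and ITGA6 was 252 and 256 CPM against 2190 and 2258 CPM (3.13 ± 0.10, SE).

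The other members differed less. ITGB1, the common partner of many alpha subunits, was 3220 and 2990 CPM with wt MET and 1402 and 1392 CPM with MET∆14, 2.22-fold lower. ITGB5, a partner of ITGAV on vitronectin, was 3.25-fold lower with MET∆14. The log2 differences of ITGA3, ITGA2, ITGAV and ITGA5 were 0.87, 0.59, 0.47 and 0.46, all higher with MET∆14. ITGB6, which with ITGAV binds latent TGF-beta, was low in both lines, with 10 and 9 counts against 24 and 32. Its call (log2 difference 1.21 ± 0.43, SE, adjusted p = 0.0185 by edgeR) was lost when the fit lacked either wt MET library of 0 h or MET∆14 0 h replicate 2, with adjusted p of 0.0523 to 0.0792. Of the exonic bases of ITGB6, 16.7% also belong to a noncoding gene on the same strand, so its counts are uncertain.

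**Figure D1:**
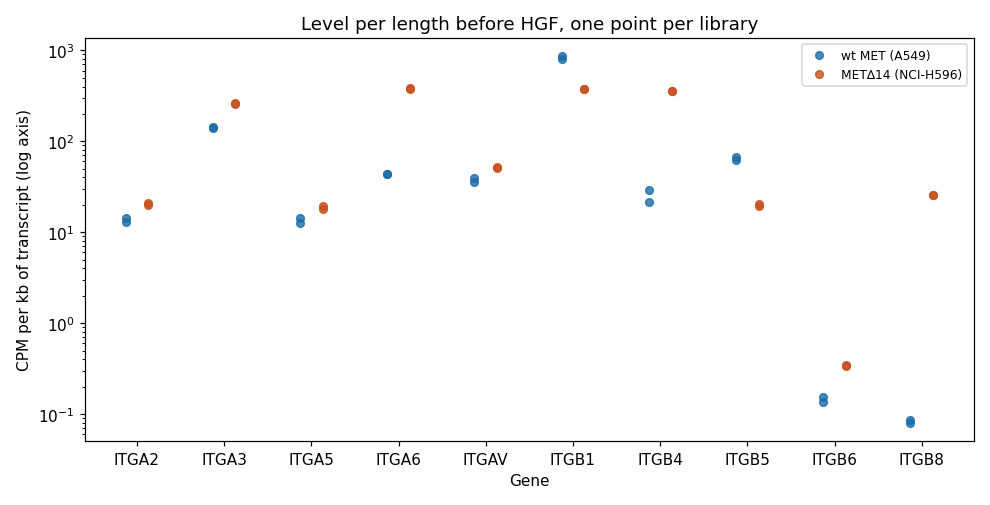
Levels per length of the 10 integrin subunits before HGF, in CPM per kb of transcript on a log axis, with 1 point for each of the 2 libraries of each line. ITGB8 is 0.08 with wt MET and 25.5 with MET∆14, and ITGB1 is the highest member with wt MET, at 831.

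Levels of different genes were compared per kilobase of the MANE Select transcript. With wt MET at 0 h, ITGB1 was at 831 CPM per kb, ahead of ITGA3 at 143, ITGB5 at 64.8, ITGA6 at 43.7, ITGAV at 37.3 and ITGB4 at 25.5. ITGA2 and ITGA5 came next at 13.6 and 13.5 CPM per kb, and their libraries overlapped, so their order was not resolved. ITGB6 and ITGB8 were last, at 0.15 and 0.08 CPM per kb.

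With MET∆14 at 0 h the order was another one. ITGA6, ITGB1 and ITGB4 were close together at 382, 374 and 356 CPM per kb, followed by ITGA3 at 261. ITGAV was at 51.6 and ITGB8 at 25.5 CPM per kb. ITGA2 and ITGB5 overlapped, at 20.5 and 19.9 CPM per kb, with ITGA5 just under them at 18.6 and ITGB6 last at 0.34. The order depends on the transcript length used. Per kilobase of all annotated exons, ITGB1 was at 95.9 with MET∆14 and ranked 4, behind ITGA6, ITGB4 and ITGA3, while with wt MET it kept rank 1 at 213.

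An F test over the 3 times of HGF against 0 h, later also written as the test at any time, was run in each line. With wt MET it called 7 of the 10 members, 5 higher and 2 lower on average. Of all genes tested it called 40.3% there (19.2% higher and 21.1% lower). With MET∆14 it called 9 of 10, 7 higher and 2 lower on average, against 54.1% of all genes (25.6% higher and 28.5% lower). The 9 include ITGB4, which was called at no single time, and not ITGB6, which was called at 6 h. At 3 h, 2 members were called in each line and both were higher, beside 17.4% of genes called with wt MET (10.3% higher, 7.16% lower) and 31.7% with MET∆14 (15.5% higher, 16.1% lower). At 6 h, 4 members were called with wt MET, all higher (34.2% of genes called, 16.4% higher and 17.8% lower), and 9 with MET∆14, of which 7 were higher (44.1% of genes, 21.6% higher and 22.5% lower). At 12 h, 6 were called with wt MET, 4 higher and 2 lower (35.1% of genes, 16.9% higher and 18.2% lower), and 7 with MET∆14, 6 higher and 1 lower (38.3% of genes, 18.3% higher and 20.1% lower). The median log2 fold change of the members at 12 h was 0.48 with MET∆14 and -0.02 with wt MET, against -0.02 and -0.0019 over all genes tested.

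Single libraries moved some of these counts. With MET∆14 0 h replicate 1 left out, 5 members in place of 9 were called at 6 h. Without replicate 1 or 2 of MET∆14 at 12 h, 5 or 6 members in place of 2 were called at 3 h of that line, and 8 in place of 7 at 12 h. With wt MET 3 h replicate 1 left out, 1 member in place of 2 was called at that time.

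**Figure D2:**
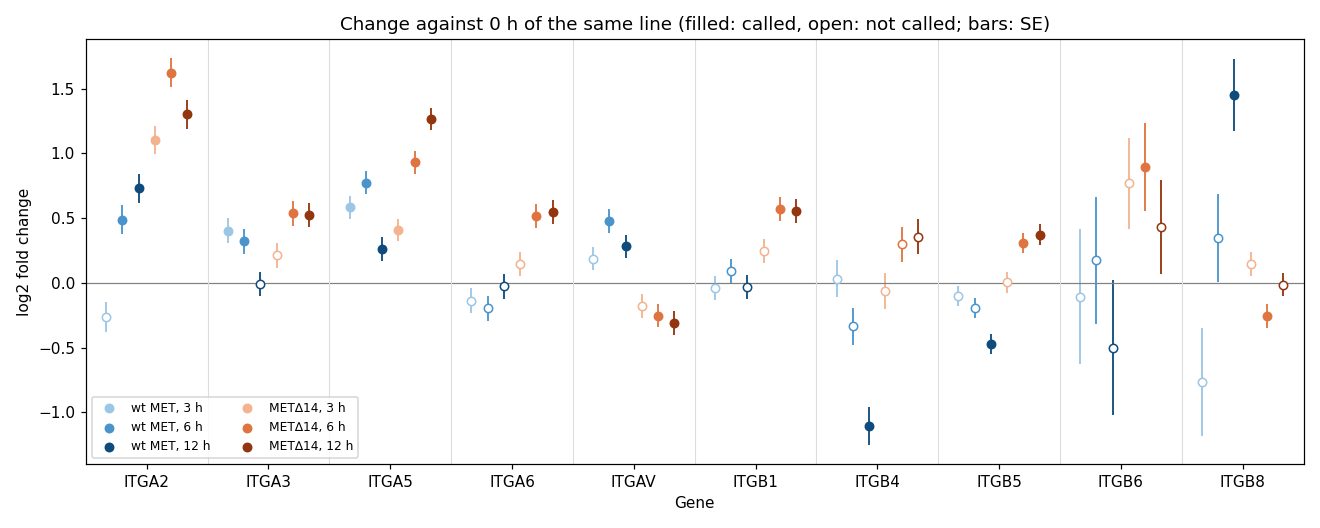
Log2 fold change of each integrin subunit against 0 h of the same line, at 3, 6 and 12 h of HGF (blue, wt MET, orange, MET∆14, darker with time), with SE bars, filled where called and open where not. ITGA2 and ITGA5 are filled at every time with MET∆14, and ITGB4 at 12 h with wt MET lies at -1.10.

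The collagen receptor subunit ITGA2 had the largest response among the members with MET∆14. It was 157 and 165 CPM at 0 h, 357 and 336 CPM at 3 h, 477 and 516 CPM at 6 h and 433 and 361 CPM at 12 h. Every HGF library was above both libraries of 0 h. The log2 fold changes were 1.10, 1.62 and 1.30 (adjusted p = 2.75e-06, 4.25e-08 and 8.36e-07), and at 12 h it was 1.16 or 1.41 without either library of that time. With wt MET, ITGA2 was 113 and 100 CPM at 0 h, 82.2 and 95.9 CPM at 3 h, 140 and 160 CPM at 6 h and 187 and 167 CPM at 12 h. Here the libraries of 3 h were the lowest, without passing the test (-0.26, adjusted p = 0.132), and those of 6 and 12 h were higher (0.49 and 0.73, adjusted p = 0.00382 and 0.000188). The response at 3 h differed between the lines by 1.37 ± 0.16 (SE) on the log2 scale.

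ITGA5 pairs with ITGB1 as the main fibronectin receptor. With MET∆14 it climbed at each time, from 81.5 and 76.5 CPM at 0 h to 103 and 106 CPM at 3 h, 144 and 157 CPM at 6 h and 193 and 188 CPM at 12 h, and no 2 times overlapped. The log2 fold changes were 0.41, 0.93 and 1.27 (adjusted p = 0.00227, 7.66e-07 and 1.21e-07), with 1.25 and 1.27 at 12 h without either library of that time. With wt MET it was 54.0 and 60.8 CPM at 0 h, 90.1 and 82.0 CPM at 3 h, 93.7 and 103 CPM at 6 h and 71.1 and 66.5 CPM at 12 h. It rose by 0.58 and 0.78 at 3 and 6 h and stood at 0.26 at 12 h (adjusted p = 0.0337). That last call was lost in 7 of 16 fits with 1 library left out, with adjusted p up to 0.242 with wt MET 12 h replicate 1 left out. The other 6 fits lacked wt MET 0 h replicate 1, wt MET 12 h replicate 2, or any library of MET∆14 at 0 or 3 h.

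ITGA2 and ITGA5 were the members called at all 3 times with MET∆14, and the 250 bases before their RefSeq starts are shown for that reason (GRCh38.p14, written 5′ to 3′ on the gene's strand). ITGA2 lies on hg38 chromosome 5 from 52989340 to 53094779, plus strand, and its stretch is chr5:52989102-52989351. ITGA5 lies on chromosome 12 from 54395261 to 54419266, minus strand, and its stretch is chr12:54419267-54419516. Capitals mark the GC box, GGGCGG or its reverse complement.
ITGA2: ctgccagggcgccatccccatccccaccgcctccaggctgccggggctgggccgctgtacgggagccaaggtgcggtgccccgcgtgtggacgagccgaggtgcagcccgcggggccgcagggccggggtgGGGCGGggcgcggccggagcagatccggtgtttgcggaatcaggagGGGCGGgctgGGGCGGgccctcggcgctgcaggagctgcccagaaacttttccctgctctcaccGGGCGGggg
ITGA5: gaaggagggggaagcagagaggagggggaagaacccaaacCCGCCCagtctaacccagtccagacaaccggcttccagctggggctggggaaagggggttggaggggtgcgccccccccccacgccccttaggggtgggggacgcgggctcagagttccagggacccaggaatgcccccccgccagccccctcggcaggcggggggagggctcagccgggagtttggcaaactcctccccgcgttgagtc
The ITGA2 stretch holds 4 GC boxes, the nearest ending 4 bases before the RefSeq start, and the ITGA5 stretch holds 1. The gene position given for ITGA2 is that of GENCODE, whose start at 52989340 lies within the ITGA2 stretch. The nearest GC box therefore lies after the GENCODE start. A GC box was in 42.6% of the 35116 promoters searched in the same way on both strands. The AP-1 letters TGANTCA (6.57% of promoters), the ETS core CCGGAAG (8.52%) and the NF-kappaB letters GGGANTTCC (1.59%) were in neither. Of the 13 entries that RefSeq gave for 8 members, 7 held a GC box, 2 an ETS core and 0 the AP-1 or NF-kappaB letters. A match describes these letters and is not a site.

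**Figure D3:**
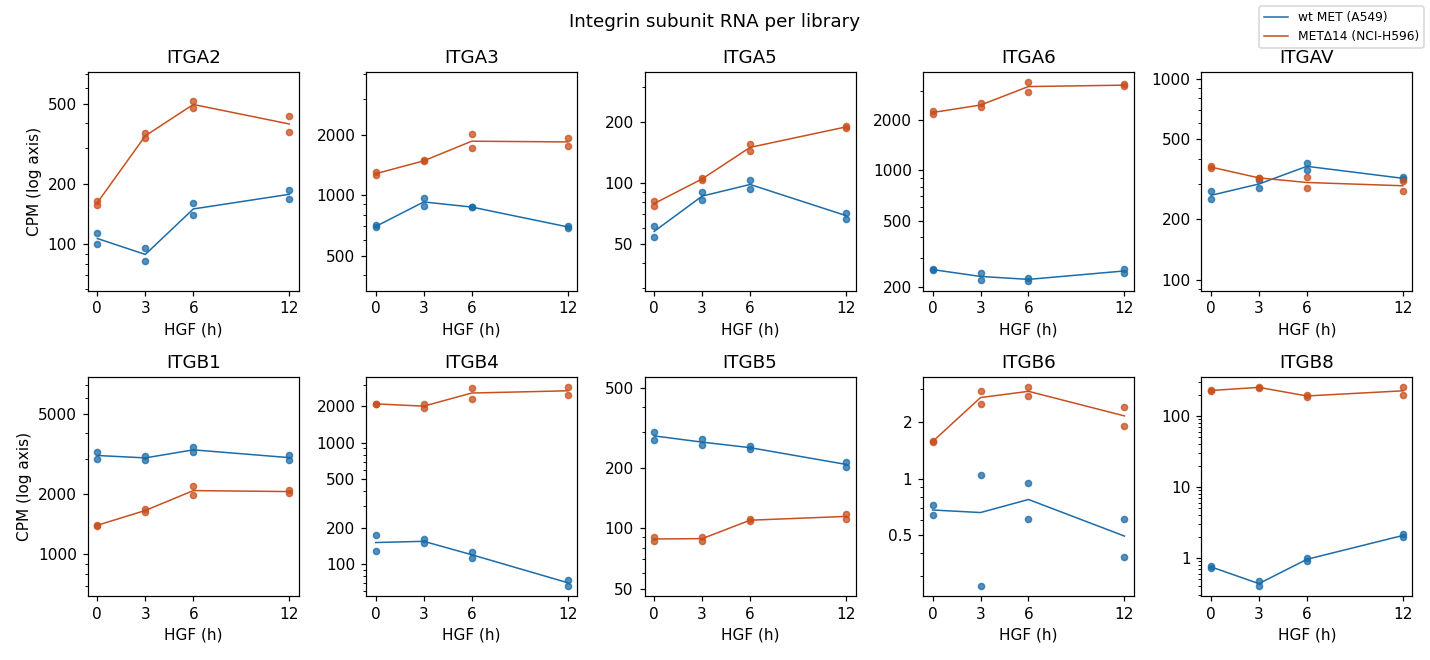
RNA of each integrin subunit in CPM on a log axis against hours of HGF, with 1 point per library and lines through the means of 2 libraries (blue, wt MET, orange, MET∆14). ITGA2 with MET∆14 goes from 161 to 496 CPM at 6 h, and ITGAV crosses between the lines, from 263 to 366 CPM with wt MET at 6 h and from 363 to 304 CPM with MET∆14.

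ITGA3 (hg38 chromosome 17, 50055968 to 50090481, plus strand), a laminin receptor subunit that pairs with ITGB1 (interaction adjusted p = 0.00309), had another time course in each line. With wt MET it was 706 and 690 CPM at 0 h, 966 and 882 CPM at 3 h, 871 and 873 CPM at 6 h and 704 and 685 CPM at 12 h. It was up at 3 and 6 h (0.40 and 0.32) and did not pass the test at 12 h (-0.01 ± 0.09, SE). The call at 3 h was lost with wt MET 3 h replicate 1 left out (adjusted p = 0.0676), and that at 6 h when the fit lacked wt MET 0 h replicate 1 or either wt MET library of 6 h (adjusted p = 0.0529 to 0.0662). In MET∆14 cells, the level was 1259 and 1295 CPM at 0 h, 1473 and 1486 CPM at 3 h, 1704 and 2002 CPM at 6 h and 1914 and 1762 CPM at 12 h. There it was up at 6 and 12 h (0.54 and 0.53, adjusted p = 0.000305 and 0.000506), and by 0.46 or 0.57 at 12 h without either library of that time.

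ITGA6 (hg38 chromosome 2, 172427354 to 172506459, plus strand), the laminin receptor subunit that pairs with ITGB1 or ITGB4, was called at 6 and 12 h with MET∆14 and at no time with wt MET. The MET∆14 libraries held 2190 and 2258 CPM at 0 h, 2534 and 2398 CPM at 3 h, 2968 and 3399 CPM at 6 h and 3287 and 3204 CPM at 12 h, with log2 fold changes of 0.15, 0.52 and 0.55. Those at 6 and 12 h passed the test (adjusted p = 0.000382 and 0.000344), and without either library of 12 h the value at 12 h was 0.53 or 0.55. With wt MET all 8 libraries lay between 218 and 256 CPM.

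ITGB4 (hg38 chromosome 17, 75721328 to 75757818, plus strand), the hemidesmosome subunit whose partner is ITGA6, fell with wt MET. It was 173 and 128 CPM at 0 h, 159 and 148 CPM at 3 h, 112 and 126 CPM at 6 h and 65.9 and 74.3 CPM at 12 h. The 2 libraries of 0 h were far apart, but both of 12 h lay under every other library, and the log2 fold change of -1.10 ± 0.14 (SE) at 12 h had an adjusted p of 5.96e-05. In MET∆14 cells, the level was 2105 and 2092 CPM at 0 h, 2079 and 1938 CPM at 3 h, 2300 and 2856 CPM at 6 h and 2888 and 2491 CPM at 12 h. No single time was called (0.36 at 12 h, adjusted p = 0.0533), while the F test over the 3 times was (adjusted p = 0.0355). With MET∆14 12 h replicate 1 left out the value at 12 h was 0.25 (adjusted p = 0.261), and without replicate 2 it was 0.45 (adjusted p = 0.0328). The F test lost its call in 8 of 16 fits with 1 library left out, with adjusted p up to 0.11. These were the fits without any library of MET∆14 at 0 or 3 h, either wt MET library of 3 h, replicate 2 of MET∆14 at 6 h or replicate 1 of MET∆14 at 12 h.

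ITGB1 (hg38 chromosome 10, 32887273 to 33005792, minus strand), which pairs with ITGA2, ITGA3, ITGA5, ITGA6 or ITGAV, was not called with wt MET, where the 8 libraries lay between 2938 and 3406 CPM and the largest log2 fold change was 0.09 ± 0.09 (SE). The MET∆14 libraries held 1402 and 1392 CPM at 0 h, 1681 and 1628 CPM at 3 h, 1967 and 2187 CPM at 6 h and 2022 and 2087 CPM at 12 h. It rose at 6 and 12 h (0.57 and 0.56, adjusted p = 0.000156 and 0.000283), and by 0.58 or 0.52 at 12 h without either library of that time. Every MET∆14 library stayed under every wt MET library.

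ITGAV (hg38 chromosome 2, 186590010 to 186680901, plus strand), which also pairs with ITGB5, ITGB6 or ITGB8, moved in opposite directions in the lines. With wt MET it was 275 and 251 CPM at 0 h, 286 and 312 CPM at 3 h, 352 and 380 CPM at 6 h and 323 and 315 CPM at 12 h, and it rose by 0.48 at 6 h and 0.28 at 12 h (adjusted p = 0.000895 and 0.0252). The call at 12 h was lost when the fit lacked wt MET 0 h replicate 2 or either wt MET library of 12 h (adjusted p = 0.0814 to 0.158). In MET∆14 cells, the level was 367 and 359 CPM at 0 h, 320 and 322 CPM at 3 h, 285 and 324 CPM at 6 h and 309 and 278 CPM at 12 h. Every HGF library was under both of 0 h, and the log2 fold changes at 6 and 12 h were -0.25 and -0.31 (adjusted p = 0.0324 and 0.0141). The call at 6 h was lost without either MET∆14 library of 0 h or replicate 1 of 6 h (adjusted p up to 0.243) and the one at 12 h without either library of 0 h (0.0785 and 0.0507). Without either library of 12 h the value at 12 h was -0.39 or -0.25. The F test over the 3 times (adjusted p = 0.038) lost its call in 8 of 16 fits, those without any library of MET∆14 at 0 or 3 h, replicate 1 of MET∆14 at 6 h, either wt MET library of 12 h or replicate 2 of wt MET at 6 h, with adjusted p up to 0.176.

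Its partner ITGB5 (hg38 chromosome 3, 124761948 to 124901418, minus strand) moved the other way round. With wt MET it was 274 and 301 CPM at 0 h, 277 and 258 CPM at 3 h, 255 and 248 CPM at 6 h and 213 and 202 CPM at 12 h, with a log2 fold change of -0.47 at 12 h (adjusted p = 0.000296). The MET∆14 libraries held 86.1 and 90.5 CPM at 0 h, 86.6 and 90.7 CPM at 3 h, 108 and 111 CPM at 6 h and 117 and 111 CPM at 12 h. It rose by 0.31 at 6 h and 0.37 at 12 h (adjusted p = 0.00497 and 0.00177), the first of which was lost with MET∆14 0 h replicate 1 left out (adjusted p = 0.066). Without either library of 12 h the latter was 0.33 or 0.40.

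ITGB8 (hg38 chromosome 7, 20330702 to 20415754, plus strand) was barely detected with wt MET and rose there at 12 h. Its counts were 10 and 11 at 0 h, 7 and 5 at 3 h, 15 and 15 at 6 h and 42 and 32 at 12 h, and both libraries of 12 h were above all others (log2 fold change 1.45 ± 0.28, SE, adjusted p = 0.00105). At no more than 2.15 CPM it remained far under every MET∆14 library. In MET∆14 cells, the level was 230 and 228 CPM at 0 h, 256 and 250 CPM at 3 h, 186 and 198 CPM at 6 h and 253 and 200 CPM at 12 h. It was lower at 6 h (-0.25, adjusted p = 0.033), a call lost without any 1 library of MET∆14 at 0 or 6 h (adjusted p = 0.0556 to 0.154). The F test over the 3 times was lost with MET∆14 6 h replicate 1 left out (adjusted p = 0.0782). At 12 h it was -0.19 (called) without replicate 1 of that time and 0.13 (not called) without replicate 2.

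ITGB6 (hg38 chromosome 2, 160099667 to 160200313, minus strand) had 4 to 14 counts in every wt MET library and was not called there. The MET∆14 libraries held 1.56 and 1.59 CPM at 0 h, 2.93 and 2.49 CPM at 3 h, 2.77 and 3.08 CPM at 6 h and 1.92 and 2.41 CPM at 12 h, from 24 to 72 counts. All HGF libraries were above those of 0 h, and the value at 6 h was called (0.90 ± 0.34, SE, adjusted p = 0.0453). The call was lost in 11 of 16 fits with 1 library left out, namely those lacking any library of MET∆14 at 0, 3 or 6 h, any of wt MET at 6 or 12 h, or wt MET 0 h replicate 2. The adjusted p was then up to 0.199, and DESeq2 gave an adjusted p of 0.122.

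The responses to HGF differed between the lines in 9 of the 10 members by an F test over the 3 times, 7 with the higher response with MET∆14 and 2 with the lower, against 37.6% of all genes tested (20.3% higher and 17.3% lower). ITGB6 was the other one. At 3 h, 1 member was called (ITGA2, higher), against 17.4% of genes (8.93% higher and 8.47% lower), and this became 4 or 3 when replicate 1 or 2 of MET∆14 at 12 h was left out. At 6 h, 6 were called, with ITGAV the lower one (30.2% of genes, 16.4% higher and 13.8% lower). At 12 h, 9 were called (24% of genes, 13% higher and 11% lower), of which 7 had the higher response with MET∆14 and ITGAV and ITGB8 the lower. The median log2 difference of the response at 12 h was 0.58 over the members and 0.01 over all genes tested. The 3 times of a line share its libraries of 0 h, so they are not separate evidence.

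**Figure D4:**
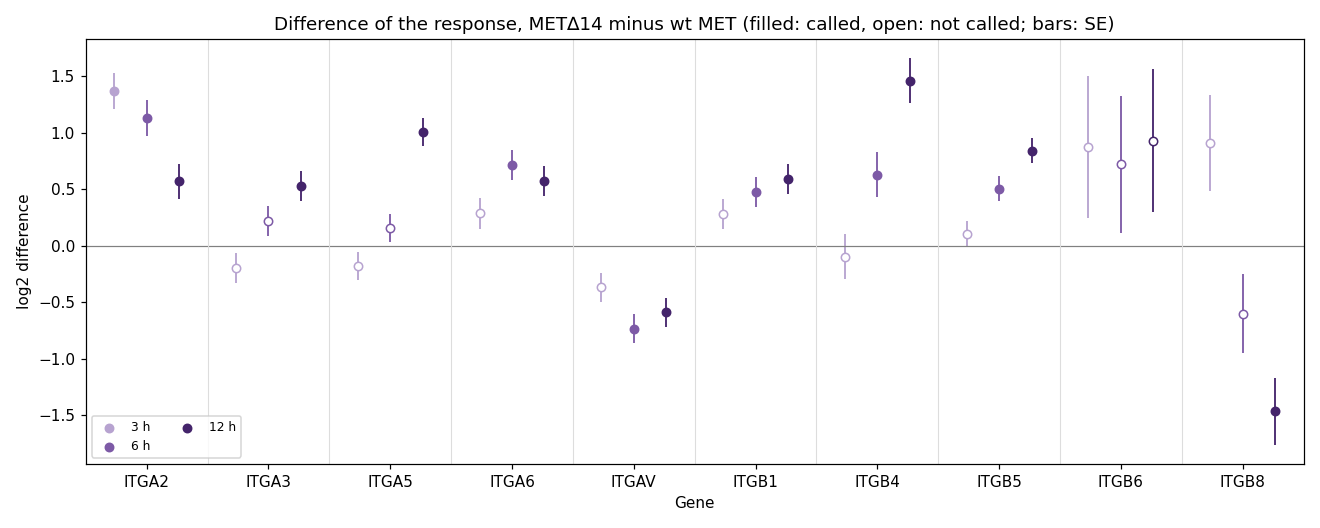
Difference of the response to HGF between the lines (MET∆14 minus wt MET, log2 scale) for each integrin subunit at 3, 6 and 12 h, with SE bars, filled where called and open where not. ITGA2 shrinks from 1.37 at 3 h to 0.57 at 12 h, while ITGB4 goes from -0.10 to 1.46 and ITGB8 from 0.91 to -1.46.

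The size and the time of these differences varied among the members. ITGA2 differed early and less later (1.37, 1.14 and 0.57 at 3, 6 and 12 h), and its call at 12 h was lost when the fit lacked wt MET 0 h replicate 1, wt MET 12 h replicate 2 or MET∆14 0 h replicate 1 (adjusted p = 0.0638 to 0.0767). ITGA5 and ITGA3 were called at 12 h (1.01 and 0.53) and not at 3 or 6 h, where their differences were -0.18 and 0.15, and -0.19 and 0.22. ITGA6, ITGB1, ITGB4 and ITGB5 differed at 6 and 12 h, by 0.71 and 0.57, 0.48 and 0.59, 0.63 and 1.46, and 0.50 and 0.84. At 6 h, the call of ITGB1 was lost when the fit lacked wt MET 6 h replicate 1, either MET∆14 library of 0 h or MET∆14 6 h replicate 2, and that of ITGB4 when it lacked any of these or wt MET 0 h replicate 1 (adjusted p = 0.0576 to 0.156). ITGAV differed by -0.73 at 6 h and -0.59 at 12 h, and ITGB8 by -1.46 at 12 h. For ITGB8, the MET∆14 response at 12 h was -0.013 and not called. The difference thus lay in wt MET, where counts were low, at 10 and 11 at 0 h and 42 and 32 at 12 h. Without either MET∆14 library of 12 h, 9 members were called at 12 h in each case.

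Successive times were also compared. From 3 to 6 h, 1 member was called with wt MET (ITGA2, by 0.75, against 3.1% of genes, 1.44% higher and 1.66% lower) and 7 with MET∆14 (9.77% of genes, 4.67% higher and 5.1% lower), of which ITGB8 was lower. The single call of wt MET was lost with wt MET 3 h replicate 1 left out, and 2 members were called without either MET∆14 library of 12 h. The 7 calls of MET∆14 became 1 without either of its 3 h libraries, 4 or 2 without replicate 1 or 2 of its 6 h, and 4 without either wt MET library of 6 h. From 6 to 12 h, 5 members were called with wt MET (11.6% of genes, 5.59% higher and 5.98% lower), 4 of them lower (ITGA3, ITGA5, ITGB4 and ITGB5) and ITGB8 higher, and 2 were called without any 1 wt MET library of 6 or 12 h. With MET∆14, ITGA5 was the 1 member called in that interval (by 0.34, against 18.6% of genes, 8.3% higher and 10.3% lower), 0 members were called with MET∆14 6 h replicate 1 left out and 2 without either library of 12 h. A model with the line and a time effect shared by both lines, a form the study used with DESeq2, called 2 members here by edgeR (ITGA2 and ITGA5, against 30.6% of genes, 13.4% higher and 17.2% lower) and 4 by DESeq2. Over all genes DESeq2 also called more, 5496 against 4615 by edgeR.

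Subunits were also set against each other per length. The ratio of ITGB1 to the sum of the 5 alpha subunits was 3.39 and 3.23 with wt MET at 0 h and 0.52 and 0.50 with MET∆14, where it stayed between 0.49 and 0.54 at all times. Within the alpha sum, ITGA3 made up 56.9% ± 0.03 (SD, n = 2) with wt MET at 0 h, while ITGA6 made up 52.1% ± 0.25 (SD, n = 2) with MET∆14. The share of ITGAV with MET∆14 went from 7.19% and 6.86% at 0 h to 3.98% and 3.79% at 12 h, and that of ITGA5 from 2.64% and 2.42% to 4.12% and 4.24%. The ratio of ITGA5 to ITGAV in that line was 0.37 and 0.35 at 0 h and 1.03 and 1.12 at 12 h, whereas with wt MET it was 0.33 and 0.40 at 0 h and 0.36 and 0.35 at 12 h.

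**Figure D5:**
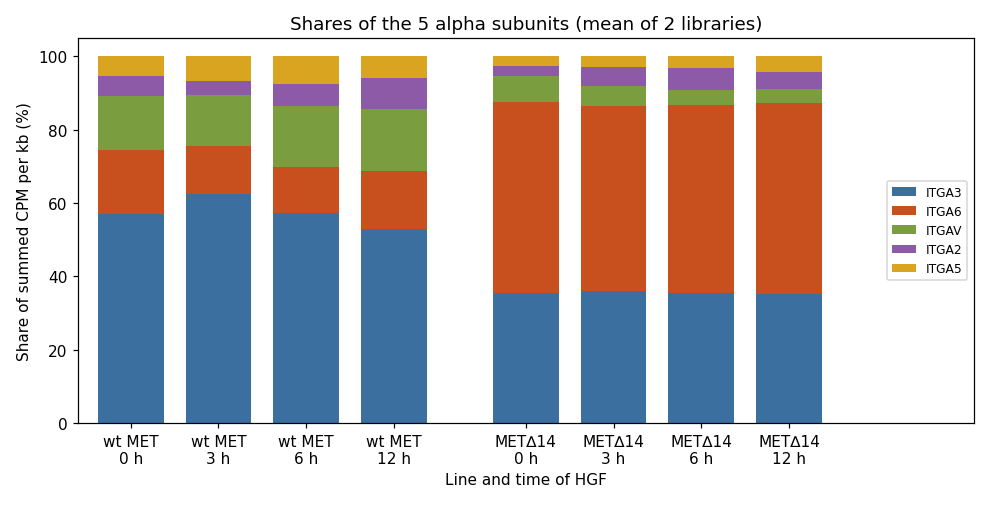
Shares of the 5 alpha subunits in their summed CPM per kb of the MANE Select transcript (%), as the mean of 2 libraries for each line and time of HGF. ITGA3 takes 56.9% with wt MET at 0 h, and ITGA6 takes between 50.4% and 52.1% at every time with MET∆14.

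For the pair of ITGA6 and ITGB4, the ratio per length was 1.48 and 2.03 with wt MET at 0 h and 3.75 and 3.48 at 12 h, and with MET∆14 1.05 and 1.10 at 0 h and 1.15 and 1.30 at 12 h. The ratio of ITGAV to the sum of ITGB5, ITGB6 and ITGB8 went from 0.63 and 0.52 to 0.95 and 0.98 with wt MET, and from 1.15 and 1.11 to 0.80 and 0.82 with MET∆14. Per kilobase of all annotated exons, a setting added after the data were seen, several of these values moved by over 1.5 times. In means of 2 libraries, at 0 h the ratio of ITGB1 to the alpha sum was then 1.48 with wt MET and 0.19 with MET∆14, that of ITGAV to its 3 partners 0.31 and 0.65, and that of ITGA5 to ITGAV 0.58 and 0.57. At 12 h the ratio of ITGAV to its partners was 0.52 with wt MET and 0.46 with MET∆14, and that of ITGA5 to ITGAV was 0.56 and 1.70. Another length scales the ratio of ITGA5 to ITGAV by the same factor at every time, so its course could not change. With wt MET the ratio of ITGAV to its partners is nearly as fixed, since ITGB5 made up most of that sum. The share of ITGAV with MET∆14 was then 3.66% at 0 h and 1.98% at 12 h, and the member sum at 0 h was 424 CPM per kb with wt MET and 948 with MET∆14. By these lengths, ITGA3 made up 49.4% of the alpha sum with wt MET at 0 h and ITGA6 64.9% with MET∆14. The SD of these shares given above leaves out such dependence on length. These are ratios of RNA and say nothing of pairs at the surface. The sum of all 10 members was 1207 and 1138 CPM per kb with wt MET at 0 h and 1120 and 1159 at 12 h. In MET∆14 cells it was 1503 and 1517 at 0 h and 2187 and 2070 at 12 h, so both libraries of 12 h were above those of 0 h.

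For each member, the gene with the most similar course was sought among 8563 genes, by Pearson's r of line-centred log2 CPM over the 16 libraries, which share their libraries and scaling. ITGB1 was closest to PRMT3 (0.97), ITGB5 to TELO2 (0.96), ITGA5 to NCEH1 (0.96), ITGA3 to OGDH (0.95) and ITGA2 to RFFL (0.95). ITGB4 was closest to COPG1 (0.94), ITGA6 to SEMA3A (0.93), ITGAV to TAPT1 (0.92), ITGB8 to ACADM (0.92) and ITGB6 to ZNF322 (0.90). These are the highest values among many and serve as a description.

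The other integrin subunits were at most 13.1 CPM in every library. Of 16, 11 passed the filter, and at any time 1 was called with wt MET and 2 with MET∆14, all lower, beside 40.3% and 54.1% of all genes. ITGB2, the common beta subunit of leukocyte integrins, had 31 and 26 counts with wt MET at 0 h and 16 and 11 at 12 h. ITGAM, a leukocyte alpha subunit, had 39 and 46 counts with MET∆14 at 0 h and 19 and 8 at 12 h, and ITGA2B of platelets had 27 and 48 against 23 and 7.

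Proteins that tie integrins to actin or activate them (talins, kindlins, vinculin, alpha-actinins and others) were 22 genes, all tested. The F test over the 3 times called 14 with wt MET, 8 higher and 6 lower on average, beside 40.3% of all genes. With MET∆14 it called 18, 16 higher and 2 lower, beside 54.1%. ZYX, the zyxin of focal adhesions, was 156 and 167 CPM with wt MET at 0 h and 265 and 274 CPM at 6 h, and with MET∆14 89.0 and 97.7 CPM at 0 h and 296 and 306 CPM at 6 h. Its mean log2 fold change over the 3 times was 0.61 with wt MET and 1.38 with MET∆14. ACTN1, an alpha-actinin that crosslinks actin, rose by a mean of 1.26 with MET∆14, from 272 and 289 CPM to 737 and 830 CPM at 6 h. TNS3, a tensin, fell with wt MET (mean -1.11), from 209 and 149 CPM at 0 h to 62.2 and 57.6 CPM at 6 h. The response differed between the lines in 18 of the 22 genes, beside 37.6% of all genes, and the median log2 fold change over the mean of the 3 times was 0.13 with wt MET and 0.29 with MET∆14, against -0.05 and -0.05 over all genes tested.

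Of 4 inhibitors of integrin activation, 2 were called with wt MET (40.3% of all genes were), SHARPIN (mean log2 fold change -0.33) and ITGB1BP1 (-0.32), both lower. With MET∆14 it called 2, beside 54.1% of all genes, FLNA (0.99) and ITGB1BP1 (0.14, not called on its mean), both higher. FLNA encodes filamin A, which binds beta subunit tails, and was 2702 and 3007 CPM at 0 h and 7969 and 5907 CPM at 12 h. Of 9 membrane partners, the F test called 1 with wt MET, beside 40.3% of all genes. This was CD151, a tetraspanin that binds laminin receptors (-0.23). Other partners were called there at 6 or 12 h, all lower. With MET∆14 the F test called 5, a share near the 54.1% of all genes, among them the tetraspanin CD82 (-0.43) and caveolin-1 (CAV1, 0.35). SLC3A2, also among them, was called higher at 6 h (0.49) and lower at 12 h (-0.86), so that its mean was -0.05. Of 4 hemidesmosome proteins, the F test called 2 with wt MET and 3 with MET∆14, beside 40.3% and 54.1% of all genes. CD151, which is also on this list, was lower with wt MET. PLEC (plectin, the link from ITGB4 to keratins) was called higher by the F test in both lines, with means of 0.34 and 0.75. The mean with wt MET did not pass the test (adjusted p = 0.0766), and there PLEC was at -0.016 at 12 h. COL17A1 (0.12) and DST (-0.21) were called with MET∆14 by the F test, though neither passed on its mean.

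Among 22 tested matrix ligands, the F test over the 3 times called 14 with wt MET (5 higher and 9 lower) and 12 with MET∆14 (7 higher and 5 lower). Of all genes it called 40.3% and 54.1%, so the count with MET∆14 was near that of all genes. Tenascin C (TNC) rose in both lines, by a mean of 1.37 with wt MET and 0.57 with MET∆14, and the responses differed (-0.80, adjusted p = 0.00432). LAMA1 and THBS1 rose most with MET∆14, by 1.45 and 1.05, and THBS1 (thrombospondin) was 286 and 339 CPM at 0 h, 1123 and 995 CPM at 3 h and 344 and 298 CPM at 12 h. Of the genes of latent TGF-beta, LTBP1, which binds it in the matrix, went up with wt MET (0.43) and down with MET∆14 (-0.47), and TGFB1 went up with wt MET (0.37) and was at -0.03 with MET∆14.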

How the data were processed

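Adapters were removed by the authors before alignment to hg38 by STAR, and the deposited table gives unnormalized counts for each gene. The submitters' processing notes name STAR 2.5.0 and RSEM 1.3.2. What RSEM was used for, which annotation was counted and whether strand was read are not given in the sources used here, so overlapping genes are uncertain.

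From these counts, edgeR 4.0.16 under R 4.3.3 was run with filterByExpr (minimum count 10, total 15), TMM and robust quasi-likelihood F tests, with 1 coefficient per condition over all 16 libraries. This kept 15067 of 42351 genes, over which p-values were adjusted (Benjamini-Hochberg, threshold 0.05). Lengths and positions are from GENCODE 44. On simulated data for 3 h of MET∆14, edgeR recovered 91.5% of the genes given a known fold change with 10 false calls among 14859 genes tested. The median estimated log2 fold change was 0.97 for genes raised and -1.01 for genes lowered. Genes of low level were given no change, and counts were drawn with the spread of the fit itself. The share recovered therefore does not describe smaller changes or members with few counts. Alternatives were DESeq2 1.42.0, its size factors, no filter, a replicate block, each line alone, each library left out and, added after the data were seen, ratios by the length of all annotated exons.

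Named genes were the members, MET, markers, the most similar gene of each member and at most 2 called genes per list and line with the largest mean change. A gene that this rule picked is not reported here. ITGB2, ITGAM, ITGA2B, COL17A1, SLC3A2 and the uncalled values beside them were added after their values were seen. The members and lists were chosen with earlier results of these data known.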

Additional observations from a re-analysis of the deposited data

Results flagged for a closer look

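In 9 of the 10 integrin subunits the response to HGF differed between the lines by the test of the difference itself, an F test over the 3 times in edgeR's quasi-likelihood model with Benjamini-Hochberg adjustment. The adjusted p was 1.84e-05 for ITGA5, 4.5e-05 for ITGA2, 8.54e-05 for ITGB4, 0.000105 for ITGB5 and 0.000289 for ITGB8. It was 0.00176 for ITGAV, 0.00264 for ITGA6, 0.00309 for ITGA3 and 0.0101 for ITGB1. Each of the 9 was also called in all 16 fits with 1 library left out, with adjusted p up to 0.0477 for ITGB1. Of all genes tested, 37.6% were called in the same test, so a difference between these lines is common. With 1 cell line for each MET status, the MET variant and the line cannot be told apart. ITGAV was higher with wt MET and lower with MET∆14 at 6 and 12 h, and at 12 h ITGB5 was lower with wt MET and higher with MET∆14. For ITGB8 at 12 h, MET∆14 was not called (-0.013), and wt MET rose from 10 and 11 counts to 42 and 32.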

How the results depend on the processing

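Of 180 comparisons of single members, DESeq2 left 164 unchanged and DESeq2's size factors in edgeR 172. No filter on low counts left 167 unchanged and the replicate block 172. With each line fitted alone, 102 of 120 were unchanged. Unchanged means the same call and, for single contrasts, the same direction. For the F tests over 3 times only the call was compared, not the direction. No call of a single contrast changed direction in any of these or with 1 library left out. Values that changed sign under these settings were not called. For DESeq2's size factors, DESeq2 and each line alone, ITGB8 at 12 h of MET∆14 was 0.0076, 0.0077 and 0.017, and ITGA3 at 12 h of wt MET was 0.0082, 0.0083 and 0.0105. For the first 2 of these, ITGA3 and ITGB1 between 6 and 12 h of MET∆14 were 0.0051 and 0.0050, and 0.0021 and 0.0018. With 1 library left out, 26 values changed sign, and none of those 26 was called. ITGA3 ranged from -0.12 to 0.11 of MET∆14 at 12 h against 6 h and from -0.036 to 0.011 of wt MET at 12 h. ITGA6 ranged from -0.062 to 0.14 of MET∆14 at 12 h against 6 h and from -0.14 to 0.025 of wt MET at 6 h against 3 h. ITGAV ranged from -0.14 to 0.047 of MET∆14 at 12 h against 6 h and from -0.18 to 0.0036 of MET∆14 at 6 h against 3 h. ITGB1 ranged from -0.086 to 0.069 of MET∆14 at 12 h against 6 h, -0.0901 to 0.0206 of wt MET at 12 h and from -0.064 to 0.027 of wt MET at 3 h. ITGB4 ranged from -0.33 to 0.079 in the difference at 3 h, -0.082 to 0.23 of MET∆14 at 12 h against 6 h and from -0.14 to 0.27 of wt MET at 3 h. ITGB5 ranged from -0.031 to 0.045 of MET∆14 at 3 h. ITGB6 ranged from -0.0015 to 0.23 of MET∆14 at 6 h against 3 h, -1.30 to 0.65 of wt MET at 3 h, -0.14 to 0.49 of wt MET at 6 h and from -0.46 to 1.499 of wt MET at 6 h against 3 h. ITGB8 ranged from -0.19 to 0.13 of MET∆14 at 12 h.

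DESeq2 called 4 members for the difference at 3 h, 4 at 3 h of MET∆14, 4 in the additive model, 2 between 3 and 6 h of wt MET and 2 between 6 and 12 h of MET∆14, where its size factors also gave 2. Over all genes, DESeq2 called 2644, 4293, 5496, 640 and 2623 in these comparisons, in that order. The reported fit called 2621, 4769, 4615, 467 and 2806. No filter gave 2, 2 and 4 members for the last interval of MET∆14, 3 to 6 h of wt MET and the additive model, with 3652, 860 and 5641 genes called in all. Each line alone gave 2 members between 3 and 6 h in both lines. Over all genes, calls between 3 and 6 h of wt MET were 467 in the reported fit, 860 without the filter, 951 with the line alone and 309 with the block. With each line alone, calls between 6 and 12 h of wt MET went from 1743 to 2801, those of MET∆14 from 2806 to 1422, and those of MET∆14 between 3 and 6 h from 1472 to 695. The causes were not tested.

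The replicate numbers do not pair the libraries (correlations of replicate differences of -0.159 to 0.035). With the replicate block, 3 members in place of 5 were called between 6 and 12 h of wt MET, and 8 single calls were lost, with adjusted p of 0.0548 to 0.0714.

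With 1 library left out, members called ranged from 8 to 9, 1 to 4 and 4 to 6 for the difference at 12, 3 and 6 h, 9 to 9 for the difference over all times and 9 to 10 for the lines at 0 h. For MET∆14 they ranged from 2 to 6, 5 to 9 and 6 to 8 at 3, 6 and 12 h, 7 to 9 at any time, 1 to 7 between 3 and 6 h and 0 to 2 between 6 and 12 h. For wt MET they ranged from 1 to 3, 3 to 6 and 4 to 6 at 3, 6 and 12 h, 7 to 7 at any time, 0 to 2 between 3 and 6 h and 2 to 6 between 6 and 12 h, and from 2 to 3 in the additive model. Depth limits ITGB6 and, with wt MET, ITGB8, whose libraries held at most 72 and 42 counts.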
